A study of Homo sapiens with 12 samples.

Results

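The box H/ACA small nucleolar RNAs (symbols starting with SNORA) and the small Cajal body RNAs (symbols starting with SCARNA) were followed in KMS-11 cells given the compound NSC12. Members were chosen by symbol alone: 126 probes carried such a symbol, and with the brightest probe standing for each gene they gave 125 genes, 101 SNORA and 24 SCARNA, of 20045 genes measured. A gene was taken as above background where its mean level passed 6.98 (log2) in at least 1 group, and 72 SNORA and 17 SCARNA genes were. By their mean over all 12 arrays, 95% of olfactory receptor genes did not reach that level. Passing in any 1 group is a looser rule than passing by that mean.

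Box H/ACA RNAs fold into hairpins followed by the short H and ACA boxes, and each pocket pairs with a target RNA so that dyskerin (DKC1), held with NOP10, NHP2 and GAR1, turns a chosen uridine into pseudouridine. SNORA genes mostly guide the enzyme to ribosomal RNA in the nucleolus, while SCARNA transcripts gather in Cajal bodies and guide modification of the spliceosomal small nuclear RNAs, some with H/ACA boxes, some with C/D boxes and some with both. Most are cut out of the introns of longer host genes, so a host transcript is spliced each time such an RNA is made.

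KMS-11 is an established human myeloma line in which the t(4;14) translocation joins the region of FGFR3 and NSD2 to the immunoglobulin heavy chain locus. All cells were held in 1% FBS for 24 h and then given DMSO, the vehicle, or 6 µM the small molecule NSC12, which is known as a fibroblast growth factor trap, for 6 h or 12 h. There were 4 groups (DMSO 6 h, NSC12 6 h, DMSO 12 h, NSC12 12 h) with 3 arrays of total RNA in each. Whether the replicates were separate cultures is not stated, so p-values reflect spread between arrays that may be technical only.

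Probe intensities as deposited were quantile normalized and taken to log2, and levels below are on that scale. Mean intensity per array ran from 347 to 634. All 8 plasma cell and myeloma markers were above background and FGFR3 read 13.90, whereas 1 of 4 T and NK cell markers, 2 of 4 myeloid markers and 1 of 4 stromal and endothelial markers were above it. The myeloma markers CD38 (mean 6.97) and SLAMF7 (7.11) were as dim as the myeloid marker CD14 (7.14) and the T cell marker CD2 (7.09). CD38 passed the background level only in NSC12 at 6 h (7.06), and the myeloid marker LYZ only in DMSO at 12 h (7.04). Of the 8 myeloma markers, 1 was higher and 2 were lower in NSC12 at 6 h, and 5 were lower at 12 h, PRDM1 most (-0.98); none of the 12 markers of other cells passed at either time. The part of these shifts in the results below was not tested. In bulk RNA, fewer cells and less RNA per cell cannot be told apart. The label was made with a kit that primes from poly(A), as background, and mature H/ACA RNAs are short and mostly lack a long tail, so which form of each RNA the probes measured (mature, extended, or host intron) was not tested.

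At 6 h, 21 SNORA genes were higher in NSC12 than in DMSO and 10 were lower (limma, Benjamini-Hochberg adjusted p under 0.05), together 30.7% of the 101, against 13.1% of all genes. These counts include SNORA71C (higher) and SNORA74A (lower), which lay below background in every group. No SCARNA gene was higher and 5 of 24 were lower, 20.8%. The median change was 0.02 for SNORA and -0.02 for SCARNA on the log2 scale, and close to 0 over all genes, so each family held members that went apart from a middle that stayed near 0. At 12 h, 21 SNORA genes were higher and 13 lower (33.7%, against 28.9% of all genes), and 3 SCARNA genes were higher and 7 lower (41.7%). The SNORA share at 12 h thus lay near that of all genes. The C/D box small nucleolar RNAs (symbols starting with SNORD) had 24 of 176 higher and 11 lower at 6 h, and 48 higher and 10 lower at 12 h.

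The groups did not overlap for 45 of 101 SNORA and 8 of 24 SCARNA genes at 6 h, against 27.9% of all genes, and for 50 and 10 at 12 h, against 38.2%. By direction, 5.56% of all genes were higher and 7.51% lower at 6 h, and 13.6% and 15.2% at 12 h. The families were set side by side without a test, since genes are not replicates. With median centring of each array in place of quantile normalization, 13 SNORA genes were higher and 10 lower at 6 h, so that 56.5% of the calls were higher in place of 67.7%. With the dimmest array of both DMSO groups left out, 18 SNORA genes were higher and 7 lower at 6 h, and 20 and 15 at 12 h, while the SCARNA counts remained 0 and 5, and 3 and 7.

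**Figure D1:**
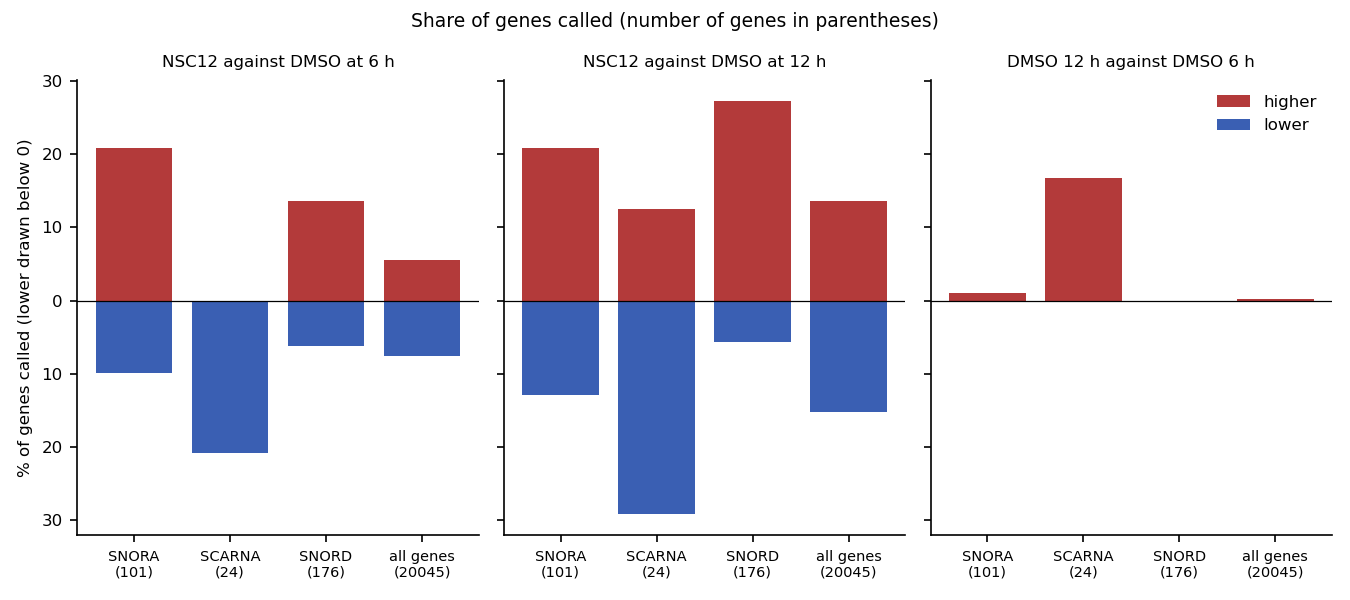
Share of genes called in each direction (y axis, %, lower drawn below 0) among SNORA, SCARNA, SNORD and all genes, for NSC12 against DMSO at 6 h and at 12 h and for DMSO at 12 h against 6 h. At 6 h the SNORA bar stands at 20.8% higher and 9.90% lower, while SCARNA has 20.8% lower and none higher.

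The 2 times share no arrays. In all, 13 SNORA genes were higher at both times, 8 were lower at both, and SNORA70 was higher at 6 h and lower at 12 h. A further 7 passed only the test at 6 h in the higher direction and 2 in the lower one, 8 and 4 passed only that at 12 h, and 58 passed neither. Among SCARNA genes, 5 were lower at both times, 3 were higher and 2 lower at 12 h alone, and 14 passed neither. Passing at one time and not at the other is no test of a difference between times. That difference was tested for each gene, and 12 of the 125 members passed, 6 in each direction (9.60%, against 10.4% of all genes, with 4.65% higher and 5.77% lower).

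**Figure D2:**
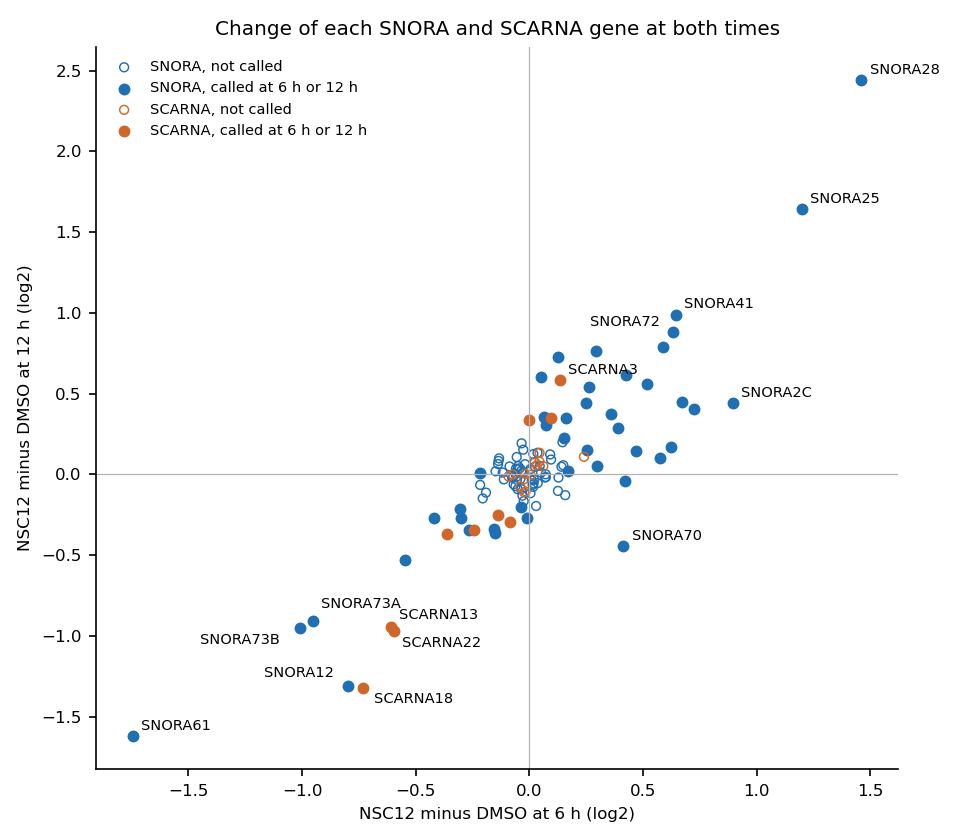
Change of each SNORA (blue) and SCARNA (orange) gene, NSC12 minus DMSO in log2 units, at 6 h (x axis) and at 12 h (y axis); filled points passed the adjusted test at 6 h or 12 h. SNORA28 (1.46 and 2.44) and SNORA61 (-1.74 and -1.62) mark the ends, SNORA70 lies at the lower right, and SCARNA18, SCARNA13 and SCARNA22 sit together in the lower left.

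SNORA28, a guide for the small-subunit ribosomal RNA, showed the largest rise of any member at both times. Its level was 7.36, 7.22 and 7.18 in DMSO and 8.80, 8.57 and 8.78 in NSC12 at 6 h. At 12 h it was 7.23, 7.38 and 7.34 in DMSO and 9.73, 9.69 and 9.86 in NSC12. Every NSC12 array lay above every DMSO array, and the 12 h NSC12 arrays above those of 6 h. The rise was 2.75-fold at 6 h (log2 change 1.46 ± 0.09 SE, limma adjusted p = 3.1e-11) and 5.44-fold at 12 h (2.44 ± 0.09, adjusted p = 2.09e-15).

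SNORA25, another small-subunit guide, was the second in size. It read 8.29, 8.10 and 8.37 in DMSO against 9.43, 9.43 and 9.50 in NSC12 at 6 h, and 8.13, 8.15 and 8.17 against 9.88, 9.65 and 9.86 at 12 h. The groups were apart at both times, by 2.30-fold (1.20 ± 0.08, limma adjusted p = 8.1e-10) and 3.13-fold (1.65 ± 0.08, adjusted p = 2.16e-12).

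SNORA41 rose 1.56-fold at 6 h and 1.99-fold at 12 h. Its DMSO arrays read 7.96 to 8.17 at 6 h and 8.17 to 8.26 at 12 h, and its NSC12 arrays 8.65 to 8.78 and 9.05 to 9.35. SNORA72 rose 1.55-fold and 1.84-fold, from 7.52 ± 0.06 to 8.15 ± 0.08 (SD, n = 3) and from 7.68 ± 0.07 to 8.56 ± 0.08. SNORA6 rose by 0.59 and 0.79 on the log2 scale. SNORA31 lay below background in DMSO and rose at least 1.20-fold at 6 h and at least 1.37-fold at 12 h. None of these passed the test of a difference between times.

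Others were farther from DMSO at 6 h than at 12 h. SNORA2C read 7.32, 7.41 and 7.35 in DMSO and 8.23, 8.14 and 8.40 in NSC12 at 6 h (0.90 ± 0.11, limma adjusted p = 7.94e-06). At 12 h its NSC12 arrays spread from 7.41 to 8.06, still above the 7.23 to 7.32 of DMSO (0.44 ± 0.11, adjusted p = 0.00452). SNORA8 rose by 0.72 and 0.41 and SNORA33 by 0.67 and 0.45, and at 12 h neither passed under median centring (SNORA8 0.30, adjusted p = 0.117; SNORA33 0.33, adjusted p = 0.057). SNORA2C, SNORA8 and SNORA33 did not pass the test of a difference between times.

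SNORA64, SNORA67 and SNORA63 rose at 6 h and lay near DMSO at 12 h. SNORA63, also called E3, went from 8.02, 8.02 and 8.06 to 8.41, 8.54 and 8.42 at 6 h (0.42 ± 0.08, limma adjusted p = 0.000827), and its 12 h arrays overlapped at 7.95 to 8.17 in DMSO and 7.95 to 8.12 in NSC12. SNORA67 changed by 0.57 and 0.10, and SNORA64 by 0.62 and 0.17. The difference between times passed for all 3 genes, at -0.46, -0.47 and -0.45 for SNORA63, SNORA67 and SNORA64. Under median centring the 6 h rises of SNORA63 (0.28, adjusted p = 0.235) and SNORA67 (0.42, adjusted p = 0.0588) and all 3 differences fell short of the threshold.

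SNORA84 and SNORA59A went the other way in time. SNORA84 overlapped at 6 h (7.75 to 7.87 in DMSO, 7.86 to 8.01 in NSC12) and stood apart at 12 h, with 7.71, 7.84 and 7.98 in DMSO and 8.60, 8.61 and 8.51 in NSC12 (0.73 ± 0.08, limma adjusted p = 4.83e-07). SNORA59A changed by 0.29 at 6 h, which did not pass (adjusted p = 0.0549), and rose by 0.77 at 12 h. SNORA59B, which shares the older name ACA59 with it, rose by 0.36 and 0.38, and both passed. Its difference between times, 0.02, did not pass. Which of the 2 RNAs each probe measured was not tested.

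SNORA70, a guide of the small-subunit ribosomal RNA and the second brightest member, changed sign. At 6 h it read 9.61, 9.65 and 9.97 in DMSO and 10.19, 10.10 and 10.18 in NSC12 (0.41 ± 0.10, limma adjusted p = 0.00451). At 12 h it read 9.69, 9.78 and 9.53 in DMSO and 9.30, 9.09 and 9.27 in NSC12 (-0.45 ± 0.10, adjusted p = 0.00085). The groups did not overlap at either time, and the 12 h effect minus the 6 h effect was -0.86 ± 0.14 (adjusted p = 0.000295). The 6 h rise did not pass under median centring (0.25, adjusted p = 0.531). Other members of the SNORA70 family are near-identical in sequence, and so which copy the probe measured is uncertain.

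Among the falls, SNORA61 was the largest. It was one of the brightest members in DMSO, at 10.65, 10.53 and 10.57 at 6 h and 10.20, 10.32 and 10.36 at 12 h. In NSC12 it read 8.86, 8.87 and 8.78 and then 8.82, 8.69 and 8.52, so every NSC12 array lay more than 1 log2 unit below every DMSO array. The fall was 3.35-fold at 6 h (-1.74 ± 0.08, limma adjusted p = 7.1e-13) and 3.08-fold at 12 h (-1.62 ± 0.08, adjusted p = 1.88e-12).

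SNORA73A and SNORA73B, the near-identical copies of U17, act in the processing of the ribosomal RNA precursor and are not known as modification guides. SNORA73A read 9.22, 9.22 and 9.37 in DMSO and 8.30, 8.28 and 8.37 in NSC12 at 6 h, and 8.95, 9.16 and 9.35 against 8.32, 8.30 and 8.13 at 12 h. SNORA73B fell by 1.01 at 6 h and 0.95 at 12 h, beside 0.95 and 0.91 for SNORA73A. Levels in the NSC12 arrays lay below all DMSO arrays for both copies, but probes for such close copies may share signal, so neither value is certain for its own gene. SNORA73B was the only member with more than 1 probe, and its dimmer probe gave -1.12 and -0.82.

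SNORA12 fell from 8.17, 7.92 and 7.63 to 7.10, 7.09 and 7.13 at 6 h, and from 8.29, 8.47 and 8.83 to 7.25, 7.35 and 7.07 at 12 h. NSC12 brought it close to the background level of 6.98 at both times, by 1.74-fold (-0.80 ± 0.13, limma adjusted p = 9.29e-05) and 2.48-fold (-1.31 ± 0.13, adjusted p = 3.74e-08). SNORA13 fell by 0.55 and 0.53. SNORA24, a small-subunit guide and the brightest member, read 10.20, 10.15 and 10.33 against 9.92, 10.03 and 9.93 at 6 h and 9.98 to 10.05 against 9.57 to 9.84 at 12 h. Its fall at 6 h (-0.27, adjusted p = 0.0333) no longer passed without DMSO replicate 1 (-0.28), DMSO replicate 3 (-0.22), NSC12 replicate 1 (-0.25) or NSC12 replicate 3 (-0.25) of that time. Under median centring neither time passed (-0.41 and -0.41).

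**Figure D3:**
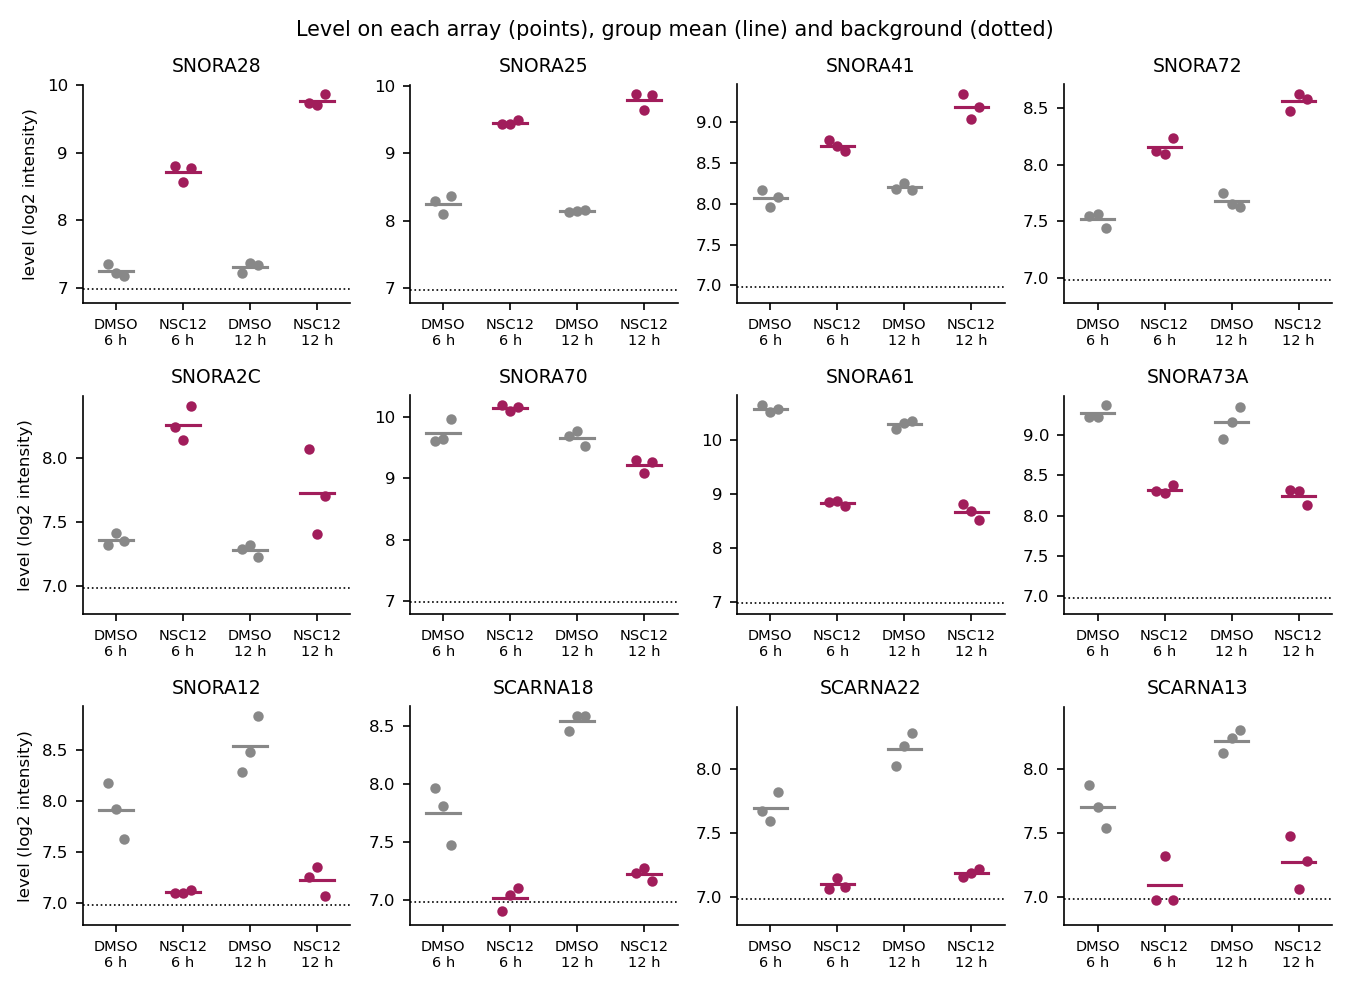
Level (log2 intensity, y axis, scaled separately for each gene) of 12 members on each array, in grey for DMSO and purple for NSC12, with the group mean as a line and the background level of 6.98 dotted. SNORA28 and SNORA25 climb in NSC12, SNORA61 drops from above 10 to below 9, and SCARNA18, SCARNA22 and SCARNA13 rise in DMSO from 6 h to 12 h while NSC12 arrays stay near the dotted line.

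The SCARNA genes that fell at both times were all of the H/ACA class. SCARNA18 read 7.96, 7.81 and 7.47 in DMSO and 6.91, 7.04 and 7.10 in NSC12 at 6 h. At 12 h it read 8.46, 8.59 and 8.59 in DMSO and 7.23, 7.27 and 7.16 in NSC12. The groups were apart at both times, by 1.66-fold (-0.73 ± 0.10, limma adjusted p = 1.83e-05) and 2.50-fold (-1.32 ± 0.10, adjusted p = 1.02e-09), and the difference between times passed (-0.59 ± 0.14, adjusted p = 0.00821).

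SCARNA22, also called ACA11, lies within NSD2, the gene that t(4;14) places under immunoglobulin control, and is known for its high level in myeloma with this translocation. It read 7.67, 7.59 and 7.82 in DMSO and 7.06, 7.15 and 7.08 in NSC12 at 6 h, and 8.02, 8.17 and 8.27 against 7.15, 7.19 and 7.22 at 12 h. All NSC12 arrays lay below all DMSO arrays, by 1.51-fold (-0.60 ± 0.08, limma adjusted p = 2.08e-05) and 1.96-fold (-0.97 ± 0.08, adjusted p = 6.08e-09). NSD2 itself read 7.48 ± 0.01 and 7.58 ± 0.07 at 6 h and 7.55 ± 0.03 and 7.65 ± 0.14 at 12 h (SD, n = 3), with changes of 0.09 ± 0.08 and 0.10 ± 0.08 that did not pass. Its other probes above background gave -0.11 and -0.00 at 6 h and -0.18 and -0.16 at 12 h. All NSD2 probes were dim: the brightest had a mean level of 7.56, and the others 7.35, 7.30 and 6.73, the last below background. Background left in the intensities understates folds of dim genes, so these values do not show that NSD2 was unchanged.

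SCARNA13, a guide with targets among the spliceosomal RNAs, read 7.87, 7.70 and 7.54 against 6.97, 7.32 and 6.98 at 6 h, and 8.12, 8.23 and 8.30 against 7.47, 7.06 and 7.28 at 12 h. It fell by 0.61 and 0.95 with no overlap. SCARNA16 fell by 0.36 and 0.37, from 7.67 ± 0.06 to 7.31 ± 0.14 and from 8.08 ± 0.15 to 7.71 ± 0.02 (SD, n = 3). SCARNA14, a guide of U2 snRNA, fell at least 1.07-fold and at least 1.21-fold to levels below background. At 6 h the call of SCARNA16 was lost without NSC12 replicate 2 (-0.30, adjusted p = 0.0531), and that of SCARNA14 without DMSO replicate 1 (-0.22), DMSO replicate 2 (-0.20) or NSC12 replicate 2 (-0.22).

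SCARNA10 (U85, a guide of U5 snRNA with both kinds of box) was the brightest SCARNA gene, and it rose at 12 h from 8.71, 8.69 and 8.77 to 9.07, 9.09 and 9.05. The rise of 0.35 ± 0.08 (limma adjusted p = 0.00135) came without overlap, but it did not pass under median centring (0.21, adjusted p = 0.407). At 6 h its groups overlapped (0.09). SCARNA3 went from 6.93, 7.12 and 7.09 to 7.87, 7.41 and 7.60 at 12 h (0.58 ± 0.09, adjusted p = 3.57e-05), after a change of 0.14 at 6 h that did not pass. SCARNA4, a guide of U2 snRNA, rose by 0.34 at 12 h, a call lost without NSC12 replicate 1 of that time (0.20, adjusted p = 0.0641).

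SCARNA8, a further U2 guide, fell at least 1.10-fold at 12 h, and SCARNA12, of mixed boxes, fell by 0.25, a call lost without DMSO replicate 3 (-0.20, adjusted p = 0.0599). SCARNA8 was above background only in DMSO at 12 h (7.12, against 6.89 in DMSO at 6 h). That change over time in DMSO, 0.23 with no overlap of arrays, did not pass. The other 7 SCARNA genes above background passed neither test: SCARNA7, SCARNA9, SCARNA9L, SCARNA11, SCARNA21, SCARNA23 and SCARNA27 changed by -0.09 to 0.24 at 6 h and -0.11 to 0.11 at 12 h. SCARNA9 and SCARNA9L are close copies and are uncertain for that reason. By class, the 14 H/ACA SCARNA genes had 5 lower at 6 h and 2 higher and 6 lower at 12 h, none of the 4 C/D genes passed at either time, and the 4 mixed genes had 1 higher and 1 lower at 12 h.

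**Figure D4:**
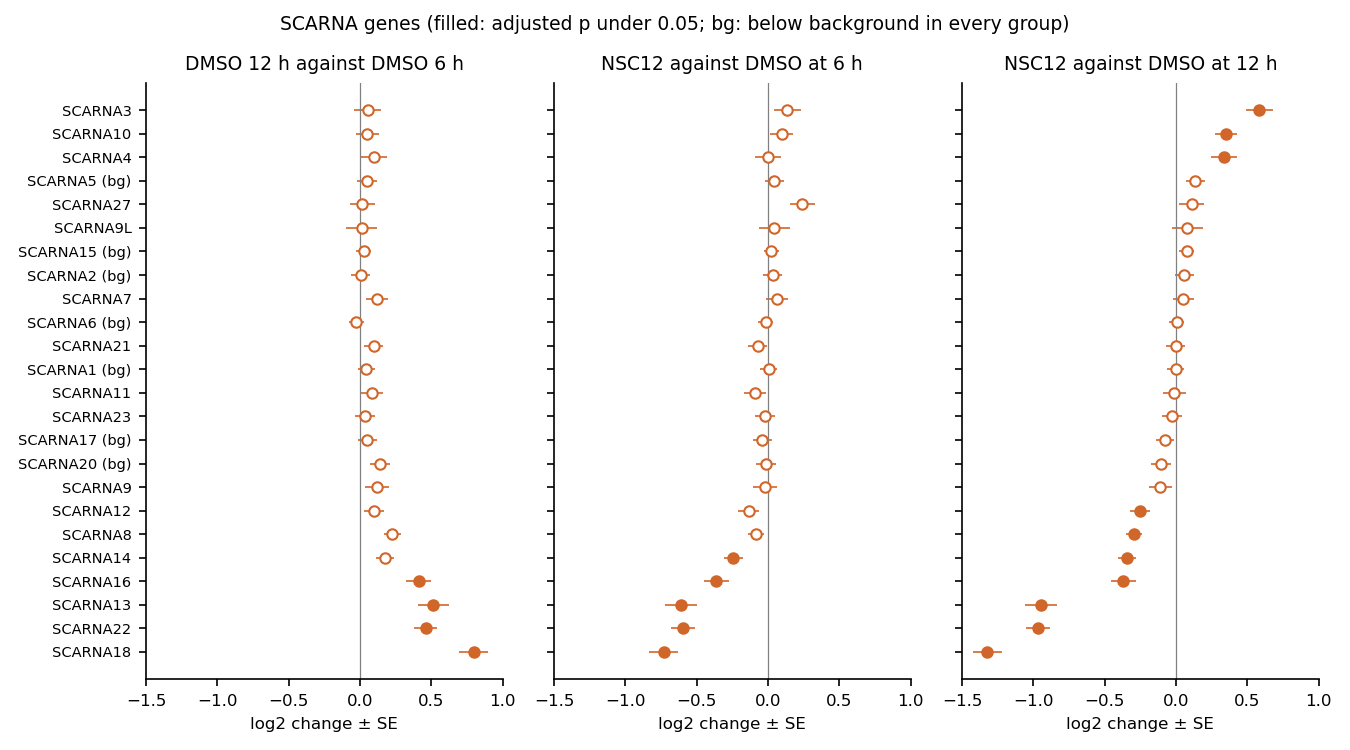
Change of each of the 24 SCARNA genes in log2 units (x axis, bars are SE) for DMSO at 12 h against 6 h, NSC12 against DMSO at 6 h and the same at 12 h. The genes at the foot of the plot, SCARNA18, SCARNA22, SCARNA13 and SCARNA16, are above 0 in the first panel and below 0 in the others, and the DMSO arrays enter all panels.

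DMSO arrays were compared over time in the same way. From 6 h to 12 h, 4 SCARNA genes and SNORA12 were higher and no member was lower, against 0.249% of all genes higher and 0.15% lower. SCARNA18 rose by 0.80 ± 0.10 (limma adjusted p = 0.000262), SCARNA13 by 0.52 (adjusted p = 0.0446), SCARNA22 by 0.46 (adjusted p = 0.0125), SCARNA16 by 0.41 (adjusted p = 0.0437) and SNORA12 by 0.63 (adjusted p = 0.0294). The 6 h and 12 h DMSO arrays of these 5 genes did not overlap. The same DMSO arrays set the changes under NSC12, where these 5 genes were lower at both times. In the NSC12 arrays themselves, SCARNA18 had means of 7.02 and 7.22, SCARNA22 of 7.10 and 7.19, SCARNA13 of 7.09 and 7.27, and SNORA12 of 7.11 and 7.22 at 6 h and 12 h, all close to the background level of 6.98, while SCARNA16 had means of 7.31 and 7.71.

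Of these DMSO rises, that of SCARNA18 passed with each array left out in turn. The SCARNA22 rise did not pass when replicate 1 (0.45) or 2 (0.40) of DMSO at 6 h, or replicate 2 of DMSO at 12 h (0.45), was left out. That of SNORA12 did not pass when replicate 2 (0.62) or 3 (0.49) at 6 h, or replicate 2 (0.65) or 3 (0.47) at 12 h, was left out. SCARNA13 and SCARNA16 each fell short under 11 of the alternatives, at 0.44 to 0.63 and 0.35 to 0.45. The median change over time was 0.09 for SCARNA, 0.02 for SNORA and near 0 for all genes. Groups did not overlap for 8 of 24 SCARNA and 19 of 101 SNORA genes, against 14.9% of all genes.

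TERC, the telomerase RNA, carries an H/ACA domain and a Cajal body signal, though its symbol kept it out of the members. It read 7.32, 7.29 and 6.88 in DMSO and 6.91, 6.82 and 6.94 in NSC12 at 6 h, where the groups overlapped, and 7.41, 7.49 and 7.76 against 6.94, 6.97 and 6.99 at 12 h, where they did not. The change at 6 h did not pass (-0.27, limma adjusted p = 0.0796), and at 12 h TERC fell at least 1.49-fold to a level below background (-0.59 ± 0.10, adjusted p = 6.05e-05). Over time in DMSO it changed by 0.39, which did not pass (adjusted p = 0.101). TERT, the protein partner, passed neither test.

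Host genes were next set beside their RNAs. Of the 125 members, 123 lay inside a longer gene and 116 inside one that was measured, 90 hosts in all. Over 79 pairs of member and host that were both above background, from 64 hosts, the changes of member and host had a Spearman correlation of -0.04 at 6 h and -0.09 at 12 h, a description across pairs that share arrays and often hosts. Of 31 such members called at 6 h, 11 had a host that was called too, 6 in the same direction and 5 in the opposite one. At 12 h the counts were 36, 23, 10 and 13.

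The member with the largest rise lay in a host that fell. EIF5, the translation initiation factor gene that holds SNORA28, changed by -0.74 ± 0.17 at 6 h (limma adjusted p = 0.00473) and -0.46 ± 0.17 at 12 h (adjusted p = 0.0482), and its dimmer probes gave -0.47 to -0.07 at 6 h and -0.44 to 0.03 at 12 h. IARS1, the isoleucyl-tRNA synthetase gene that holds SNORA84, changed by -0.63 and -1.32 (both passed) while SNORA84 rose at 12 h. KANSL2, host of SNORA2C, fell by 0.39 and 0.55, COP1, host of SCARNA3, by 0.75 and 0.95, and KHDC4, host of SCARNA4, by 1.10 and 0.78. In the other direction, EPB41L4A-AS1, a noncoding host, rose by 0.88 and 1.31 while its SNORA13 fell, and SNHG8 rose by 0.68 at 12 h while its SNORA24 fell. The pairs above were picked from those that went opposite ways. Of pairs called together, 6 of 11 at 6 h and 10 of 23 at 12 h went the same way. Among these at 6 h, SNORA80E, also in KHDC4, fell by 0.31, and RPS2 rose by 0.26 with its SNORA64. The 10 pairs at 12 h include the near-identical SNORA73A and SNORA73B, both paired with SNHG3. SNHG3 was above background only in DMSO at 12 h (7.03), and their other host, RCC1, was not called.

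For the members with the deepest falls, host values were as follows. SNHG12, a noncoding host of SNORA61, changed by 0.08 at 6 h and rose by 0.87 at 12 h, and SNORA16A in the same host changed by -0.15 and 0.02. CWF19L1, host of SNORA12, changed by -0.13 and -0.06, and neither passed. TMEM167A, host of SCARNA18, rose by 0.33 at 6 h (limma adjusted p = 0.0102) and changed by 0.18 at 12 h, which did not pass; its other probe, also above background, gave 0.28 and 0.59. SNHG10, host of SCARNA13, changed by 0.12 and -0.02 without passing, and TIPIN, host of SCARNA14, rose by 0.34 and 0.74. SNORA73A and SNORA73B lie within both RCC1, which changed by 0.16 and 0.11 without passing, and SNHG3, which read 6.93 and 6.86 in the 6 h groups and 7.03 and 6.80 in the 12 h groups. SNHG3 was thus below background in 3 of 4 groups. At 12 h it was called lower (-0.23, limma adjusted p = 0.00804), but the size of that fall was not measured, and at 6 h it did not pass. SNHG10 and NSD2 read close to the background level, where folds are understated, so a lack of change was not shown for them. From 6 h to 12 h in DMSO, TMEM167A changed by 0.14, SNHG10 by -0.05, NSD2 by 0.06, CWF19L1 by 0.08 and SNHG20, host of SCARNA16 and below background, by -0.00, and none passed. SCARNA16 also lies within SEC14L1, which was above background and changed by 0.19 over that time without passing. Under NSC12 the brightest SEC14L1 probe rose by 0.41 and 0.25, and both passed. Its other probes gave -0.31 and 0.07 at 6 h and -0.54 and -0.02 at 12 h.

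TAF1D, which encodes a subunit of a selectivity factor of RNA polymerase I, holds 6 members in its introns and rose by 0.47 at 6 h and 0.94 at 12 h. At 6 h SNORA25 rose by 1.20, SNORA8 by 0.72, SNORA32 by 0.39 and SNORA1 by 0.25. SNORA18 changed by -0.16 and SNORA40, which lay below background in every group, by 0.04, neither of which passed. At 12 h SNORA25 rose by 1.65, SNORA8 by 0.41 and SNORA32 by 0.29, SNORA18 fell by 0.34, and SNORA1 and SNORA40 did not pass. RNAs of this common host thus ran from -0.16 to 1.20 at 6 h and from -0.34 to 1.65 at 12 h. SNHG17 rose by 1.02 and 1.25, but 3 of its 4 RNAs, SNORA71B, SNORA71C and SNORA71D, lay below background in every group. SNORA71A, near-identical to them, was above it and rose by 0.30 at 12 h. SNORA71C was called higher at 6 h, but the size of that rise was not measured.

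**Figure D5:**
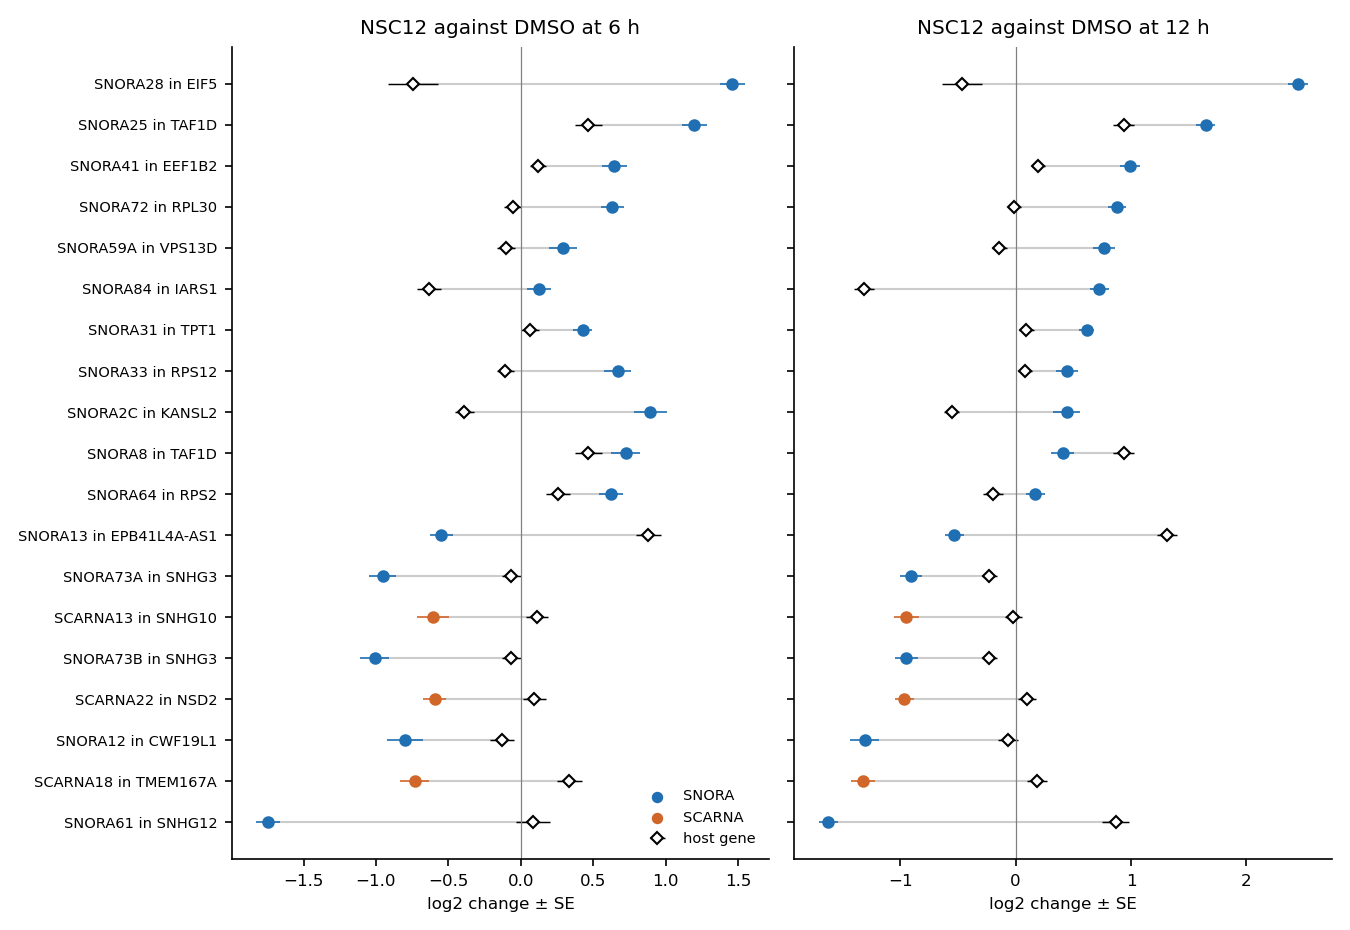
Change under NSC12 in log2 units (x axis, bars are SE) of 19 members (circles) and of the host gene of each (diamonds), at 6 h and 12 h, with the panels on different scales; SNHG3 and VPS13D lay at or below background. SNORA28 in EIF5 and SNORA84 in IARS1 lie to the right of their hosts, and SNORA13 in EPB41L4A-AS1 and SNORA61 in SNHG12 to the left.

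Many host genes are known to start transcription at a C within a run of pyrimidines, as ribosomal protein genes do. To show what the hosts of the largest changes look like there, 50 bases around the annotated start (30 before, 20 after) are given, from RefSeq promoters of GRCh38.p14. Capitals mark a C at the start followed by at least 4 C or T without a break.
EIF5, chr14:103334207-103334256, plus strand, host of SNORA28: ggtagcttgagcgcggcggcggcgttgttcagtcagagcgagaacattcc
TAF1D, chr11:93741476-93741525, minus strand, host of SNORA25: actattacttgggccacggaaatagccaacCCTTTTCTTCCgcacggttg
SNHG12, chr1:28581854-28581903, minus strand, host of SNORA61: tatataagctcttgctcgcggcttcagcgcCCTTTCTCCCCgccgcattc
RCC1, chr1:28506013-28506062, plus strand, host of SNORA73A and SNORA73B: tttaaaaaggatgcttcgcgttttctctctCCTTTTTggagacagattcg
SNHG3, chr1:28505913-28505962, plus strand, host of SNORA73A and SNORA73B: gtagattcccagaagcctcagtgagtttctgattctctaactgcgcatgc
TMEM167A, chr5:83077375-83077424, minus strand, host of SCARNA18: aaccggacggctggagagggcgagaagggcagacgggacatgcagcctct
NSD2, chr4:1871363-1871412, plus strand, host of SCARNA22: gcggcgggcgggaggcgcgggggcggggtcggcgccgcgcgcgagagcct

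TAF1D, SNHG12 and RCC1 carry the run and EIF5, SNHG3, TMEM167A and NSD2 do not, so it stands at hosts of members that rose and of members that fell. Such a start was annotated for 17 of 73 hosts that have a promoter entry, or 23.3%, against 4.04% of all 27305 genes in the table. It was found at 15 of 57 hosts of SNORA genes (26.3%) and 2 of 17 hosts of SCARNA genes (11.8%), NCAPD2 and PHB2. RCC1 was not counted, since SNHG3 stood as the host of SNORA73A and SNORA73B, and its start is shown as that of the longer host. The search took the annotated strand of each start only. A match is a description of letters and not a bound site.

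The proteins that make and hold these RNAs were read beside the shares of all genes, 13.1% called at 6 h and 28.9% at 12 h (13.6% higher and 15.2% lower). Every protein gene on these lists was above background, whereas the shares of all genes also count those below it. Of the 12351 genes above background, fitted alone, 1292 were higher and 1673 lower at 6 h. At 12 h those counts were 2893 and 3229. Of the 4 H/ACA core proteins, DKC1, the pseudouridine synthase, fell by 0.23 at 6 h and 0.56 at 12 h (limma adjusted p = 0.0227 and 6.94e-07), NOP10 rose by 0.18 at 12 h, and GAR1 and NHP2 passed at neither time. Of 5 assembly factors none passed at 6 h. At 12 h the assembly factor NAF1 rose by 0.30, and SHQ1, the chaperone of DKC1, and RUVBL1, an ATPase, fell by 0.43 and 0.39. The difference between times passed for 1 of the 4 core proteins and 1 of the 5 assembly factors, against 10.4% of all genes.

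Of 8 Cajal body proteins, GEMIN2 rose at 6 h (0.29), and at 12 h 4 rose and 2 fell. COIL, which encodes coilin, the scaffold of the Cajal body, went from 10.12 ± 0.08 to 10.68 ± 0.09 (SD, n = 3) at 12 h, a rise of 0.56 (limma adjusted p = 3.61e-05), and GEMIN2, TGS1 and NOLC1 rose by 0.59, 0.39 and 0.32. GEMIN4 and GEMIN5, parts of the SMN complex, fell by 0.69 and 0.41. WRAP53, which brings SCARNA transcripts to Cajal bodies, and SMN1 passed at neither time. The difference between times passed for 3 of the 8, with 10.4% of all genes beside it. Of 10 genes for trimming and decay of small RNA ends, ZCCHC8 alone rose at 6 h (0.38), and PABPN1, RBM7, EXOSC10 and EXOSC3 rose at 12 h by 0.25 to 0.40 with none lower. Of the 4 box C/D core proteins none passed at 6 h, and at 12 h NOP58 rose by 0.35 and NOP56 fell by 0.29.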

How the data were processed

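Trizol extracts of total RNA were turned into biotinylated cRNA with an Ambion MessageAmp kit for Illumina arrays, per the labels. The deposited table holds linear probe intensities (69.5 to 25534) of 47319 probes. How the authors corrected background or normalized is not stated in the labels, and unequal array means (347 to 634) led to treating the intensity values as unnormalized with background left in, which understates folds of dim genes. The number of arrays limits the precision.

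Of the probes, 30111 had 1 gene symbol in the platform annotation, 8 had several and 17200 had none listed. Symbols were updated through RefSeq of GRCh38.p14 (30072 probes matched). The brightest probe stood for each of 20045 genes. No value was below the floor of 16. Arrays were quantile normalized and taken to log2. Background was the 95th percentile of mean levels of 384 olfactory receptor genes, and 12351 genes (61.6%) passed it in at least 1 group. Where a group mean lay below it, the fold is a bound against that level.

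All genes were fitted together in limma 3.58.1 (R 4.3.3), 1 mean per group over all 12 arrays, with moderated variances that follow an intensity trend; Benjamini-Hochberg adjustment over all genes was used at 0.05. Values are log2 differences ± SE. The fit was tested on simulated data. Figures were drawn with matplotlib 3.10.9.

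The host was the shortest measured RefSeq gene that contains the member. Its strand was not considered, since the RefSeq gene table used here gives none. The box class of SCARNA genes was assigned by hand from general knowledge, and SCARNA9L and SCARNA27 were given none.

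Members, lists and tests were chosen with earlier results of these data known. Named with values were the 8 largest rises and falls at each time (past the threshold, above background, groups not overlapping). Among members past the threshold in either direction, the 5 largest for DMSO over time and for the difference between the NSC12 effects were named. So were the 4 brightest of each family, each SCARNA gene above background, SCARNA22 and TERC. Host values in the text cover part of these members only, and some hosts left out also changed. Added after seeing their values were the other members of TAF1D, SNHG12, SNHG17 and KHDC4, and SNORA57, SNORA59B and SNORA74A. Alternatives were median centring, cyclic loess, normexp background correction (offset 50), genes above background only, the mean of probes, array brightness as a covariate, replicate number as a block and each array left out in turn. Leaving out the dimmest array of both DMSO groups was chosen after seeing the data.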

Additional observations from a re-analysis of the deposited data

Results flagged for a closer look

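For 12 members the effect of NSC12 at 12 h differed from that at 6 h in limma's test of the difference (Benjamini-Hochberg over all genes), against 10.4% of all genes. Higher at 12 h than at 6 h were SNORA28 (difference 0.98 ± 0.12 SE, adjusted p = 2.59e-05), SNORA84 (0.60 ± 0.12, adjusted p = 0.00194), SNORA59A (0.48 ± 0.14, adjusted p = 0.0302), SCARNA3 (0.45 ± 0.13, adjusted p = 0.032), SNORA25 (0.45 ± 0.12, adjusted p = 0.0181) and SNORA57 (0.29 ± 0.09, adjusted p = 0.0457), which lay below background in every group but NSC12 at 12 h, so that its difference is not a measured size. Lower at 12 h than at 6 h were SNORA70 (-0.86 ± 0.14, adjusted p = 0.000295), SCARNA18 (-0.59 ± 0.14, adjusted p = 0.00821), SNORA67 (-0.47 ± 0.13, adjusted p = 0.0186), SNORA63 (-0.46 ± 0.11, adjusted p = 0.0106), SNORA64 (-0.45 ± 0.12, adjusted p = 0.0132) and SCARNA22 (-0.37 ± 0.12, adjusted p = 0.0445).

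SNORA28 and SCARNA18 passed under each alternative run, and SNORA57 was not followed through them. SNORA70, SNORA84, SNORA63 and SNORA64 fell short under median centring alone (-0.81, 0.60, -0.42 and -0.43). SCARNA22, SCARNA3 and SNORA59A fell short under 13, 12 and 10 alternatives, SNORA67 under 5 (-0.45 to -0.42) and SNORA25 under 3 (0.38 to 0.56).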

How the results depend on the processing

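No named value changed direction where it was called. Of 52 named member values called at 6 h or 12 h, 40 passed under every alternative. Under median centring, 13 SNORA genes were higher at 6 h, and for the difference between times 1 SNORA gene was higher and 0 lower, with 0 SCARNA genes higher and 1 lower. For that difference, SCARNA higher also fell to 0 under cyclic loess, the brightness covariate and without the dimmest DMSO arrays, SCARNA lower to 1 under normexp and the brightness covariate, and SNORA higher to 2 without the dimmest DMSO arrays. Over time in DMSO, SNORA higher went to 0 under the replicate block and the mean of probes, and SCARNA higher to 2 without the dimmest arrays. Leaving out arrays in turn gave 6 to 11 SNORA lower, 0 to 1 SCARNA higher and 3 to 5 SCARNA lower at 6 h, 3 to 6 SNORA higher, 0 to 2 SCARNA higher and 1 to 2 SCARNA lower for the difference, and 0 to 1 SNORA and 1 to 4 SCARNA higher over time in DMSO. At 12 h it gave 19 to 24 SNORA higher and 10 to 14 lower. The causes were not tested.

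Deviations of arrays with the same replicate number from their group means correlated at -0.47 to 0.18, over 0.1 in 2 of 18 pairs. Whether same-numbered arrays share a culture is not stated, and deviations from means of 3 arrays cannot settle it. With the replicate block, SNORA had 20 higher and 11 lower at 6 h and 21 and 13 at 12 h, and SCARNA kept counts of 0 and 5, and 3 and 7. Levels near background limit the smallest SCARNA changes.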
